A study of Mus musculus with 39 samples.

Results

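The 38 genes described here encode the machinery that copies DNA in S phase. They were listed by symbol as parts of this machinery, with earlier results of these data known, and all 38 were found among the 20520 genes of the expression table and among the 13650 genes that passed a filter on low values. The libraries came from PB2 mouse breast tumors that carried either p95HER2 or FL-HER2. HER2 is a receptor tyrosine kinase of the plasma membrane, FL-HER2 is its full-length form, and p95HER2 is a carboxy-terminal fragment that lacks most of the extracellular domain. Poly(A) RNA was sequenced from 10 p95HER2 tumors collected 22 days after implantation, 10 p95HER2 tumors collected at day 10, 9 FL-HER2 tumors collected at day 22 and 10 FL-HER2 tumors collected at day 10. Every tumor carried a HER2 construct, so each comparison sets one form of HER2 or one day against the other. The sources used here do not give the host strain and age, the promoter behind each construct or whether a PB2 line was a single clone. Nor do they give whether each library came from a separate animal, so p-values measure the spread between these libraries, which may in part be technical. Of the FL-HER2 day 10 columns, 8 of 10 carry a tumor number of 5 digits, against 3 digits in all other columns, and no source used here says whether those 8 libraries are pools or come from another set of animals, so the spread and n of that group may mean something else than in the others.

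In each cell cycle, origins of replication are first licensed: the origin recognition complex, with Cdc6 and Cdt1, loads the Mcm2-7 helicase onto DNA. Mcm10, Cdc45 and the GINS complex then turn the loaded helicase into a moving fork, where primase and the replicative polymerases copy the strands, the Rfc clamp loader places the Pcna sliding clamp, and Fen1 and Lig1 join the lagging-strand fragments. Many of these genes are transcribed in late G1 and S phase under E2F factors, which cyclin E and its kinase partner release from Rb. Because resting cells hold little of these transcripts, the genes are widely read as markers of the share of cells in cycle.

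Depth ranged between 21772259 and 44427621 reads per library, and the fewest reads behind any replication gene in any library were 155, for Orc1. The tumor label was checked against 13 mammary epithelial markers, which together took 0.241 to 0.279% of reads in p95HER2 day 22 tumors, 0.251 to 0.335% in p95HER2 day 10 tumors, 0.216 to 0.266% in FL-HER2 day 22 tumors and 0.224 to 0.336% in FL-HER2 day 10 tumors, and none of the 13 was at 0 in all libraries. Skeletal muscle markers and skin markers varied strongly between libraries. Libraries with high skin RNA numbered 3, 5, 1 and 2 in the same order of groups. In bulk tissue, fewer cells of a type and less RNA per cell cannot be told apart.

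E2F sites are the best known feature of promoters of this class, so the windows of 250 bases before to 50 bases after each transcription start were read from RefSeq (GRCm38.p6). Windows were found for 30 of the 38 genes, 35 windows in all. The E2F words searched on both strands were TTTGGCGC, TTTCGCGC, TTTCCCGC and TTTGCCGC, of which neighbouring matches on opposite strands can share bases. At least 1 of them lay in a window of 13 of the 30 genes, or in 37.1% of the 35 windows, against 2.26% of all 32851 windows of the same length. Genes of the mitosis list, which peak later in the cycle, had an E2F word in 4.35% of their 23 windows and the cell cycle homology region TTTGAA in 73.9%. The replication genes had TTTGAA in 11.4% of windows, against 17.9% of all windows. CCAAT, searched in the same way on both strands, lay in 57.1% of the windows of replication genes, 82.6% of those of mitosis genes and 37.4% of all windows. A match describes the letters of the window and is not a binding site. The windows of Mcm6, Mcm3, Uhrf1 and Orc1 are shown because they hold an E2F word and these genes had the smallest p-values of such genes between the days in FL-HER2 tumors. The window of Rfc4 is shown as that of a gene with a similarly small p-value and none of the words. Capitals mark the E2F words, and each window is written on the strand of its gene.
Mcm6, chr1:128359656-128359955, minus strand: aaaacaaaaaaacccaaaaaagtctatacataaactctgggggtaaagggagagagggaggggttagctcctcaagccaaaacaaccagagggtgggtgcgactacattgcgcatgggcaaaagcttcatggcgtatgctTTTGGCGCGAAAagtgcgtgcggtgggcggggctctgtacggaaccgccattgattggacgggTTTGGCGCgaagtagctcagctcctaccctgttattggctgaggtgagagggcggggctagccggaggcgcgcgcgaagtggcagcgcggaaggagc
Mcm3, chr1:20820263-20820562, minus strand: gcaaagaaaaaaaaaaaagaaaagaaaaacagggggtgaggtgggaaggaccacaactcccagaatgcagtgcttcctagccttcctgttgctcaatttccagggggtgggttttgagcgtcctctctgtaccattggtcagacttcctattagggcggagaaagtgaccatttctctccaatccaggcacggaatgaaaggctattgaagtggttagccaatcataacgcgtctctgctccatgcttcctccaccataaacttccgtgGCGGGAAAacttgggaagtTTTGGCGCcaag
Uhrf1, second of 2 windows, chr17:56304063-56304362, plus strand: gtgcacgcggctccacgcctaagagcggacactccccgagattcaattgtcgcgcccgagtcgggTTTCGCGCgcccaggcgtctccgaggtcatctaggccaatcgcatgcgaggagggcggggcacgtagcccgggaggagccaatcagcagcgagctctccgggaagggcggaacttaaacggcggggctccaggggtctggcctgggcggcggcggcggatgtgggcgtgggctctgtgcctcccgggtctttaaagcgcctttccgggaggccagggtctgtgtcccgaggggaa
Orc1, chr4:108579204-108579503, plus strand: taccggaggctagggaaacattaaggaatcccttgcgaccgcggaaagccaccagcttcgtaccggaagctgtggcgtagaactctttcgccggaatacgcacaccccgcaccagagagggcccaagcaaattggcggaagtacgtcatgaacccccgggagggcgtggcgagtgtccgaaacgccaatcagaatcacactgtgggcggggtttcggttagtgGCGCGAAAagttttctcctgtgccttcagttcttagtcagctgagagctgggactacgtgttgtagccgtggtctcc
Rfc4, chr16:23127681-23127980, minus strand: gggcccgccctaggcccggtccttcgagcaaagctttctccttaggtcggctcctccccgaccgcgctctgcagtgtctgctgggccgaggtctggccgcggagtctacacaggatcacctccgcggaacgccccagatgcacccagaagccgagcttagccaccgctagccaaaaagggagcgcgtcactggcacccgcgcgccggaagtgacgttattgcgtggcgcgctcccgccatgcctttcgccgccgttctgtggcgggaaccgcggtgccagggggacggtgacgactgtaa
In the Mcm6 window, one pair of words overlapped on opposite strands, with the first at position -110 from the start, and a further word lay at -47. The word in the Orc1 window lay at -27, and the Mcm3 window held its pair of words after the start, at positions 20 and 39.

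Levels spread widely between the genes. Per exon length and library depth (RPKM), averaged over the 39 libraries, the helicase subunit Mcm7 was highest at 107, followed by the sliding clamp Pcna at 84.8, Mcm6 at 61.3, the salvage kinase Tk1 at 51.0 and Mcm3 at 50.7. The lowest were the polymerase epsilon subunit Pole at 4.13, the GINS subunit Gins3 at 3.90 and the origin recognition subunit Orc1 at 2.80. Among the other subunits of the Mcm2-7 ring, on this per-length scale Mcm2 stood at 20.4, Mcm4 at 35.7 and Mcm5 at 36.7. The length covers all annotated exons of a gene, 6956 bases for Mcm2, 3589 for Mcm4 and 3993 for Mcm5. The order of these subunits therefore depends on that divisor. Exons of 11 of the 38 genes share bases with a coding gene on the opposite strand. For Gins2 the shared stretch with Gse1 is 2758 of 4097 exonic bases, and for Fen1 an antisense RNA covers 1909 of 2422 exonic bases. No source used here gives the strand setting of the counting, so for these genes reads of both strands may be mixed. Pcna and Tyms have annotated pseudogenes that bear their names, and reads could be divided between copies.

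Replication genes were higher in later tumors with either construct. In p95HER2 tumors, 27 of the 38 were higher at day 22 than at day 10 and 0 were lower (limma, adjusted p under 0.05 over all 13650 genes), or 71.1% higher against 16.6% of all genes, of which 18.6% were lower. In FL-HER2 tumors, 28 were higher and 0 lower, or 73.7% higher against 20.7% of all genes, of which 30.6% were lower. The changes were small: the median log2 change, on the scale log2(normalized count + 1), was 0.24 in p95HER2 tumors and 0.30 in FL-HER2 tumors, beside medians over all genes of 0.0016 and -0.03. The change was positive for 38 of 38 genes in p95HER2 tumors, against 6869 of all 13650 genes. In FL-HER2 tumors it was positive for 35 of 38, against 6181 of all 13650 genes. The groups of the 2 days did not overlap on the deposited scale for 4 genes in p95HER2 tumors (Mcm3, Mcm6, Prim1 and Prim2), against 2.68% of all genes in that direction, and for 8 in FL-HER2 tumors (Mcm2, Mcm3, Mcm6, Prim2, Pole, Rfc4, E2f1 and Uhrf1), against 2.78% of all genes.

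**Figure D1:**
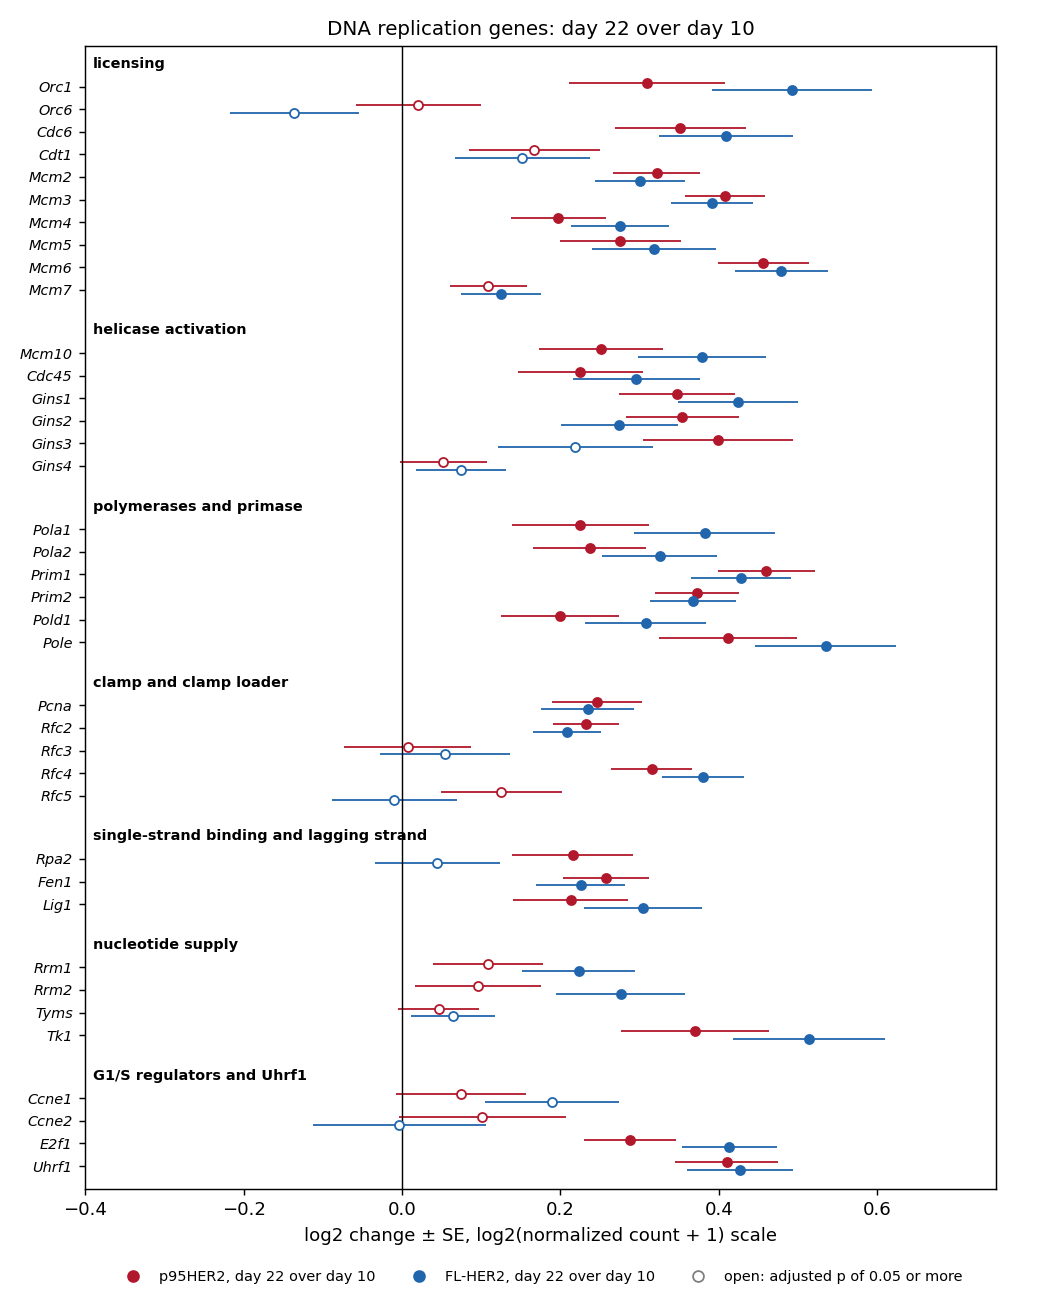
Log2 change between day 22 and day 10 (x axis, log2(normalized count + 1) scale, bars are the SE) of the 38 replication genes, ordered by role (rows), in p95HER2 tumors (red) and FL-HER2 tumors (blue); filled points had an adjusted p under 0.05. All 38 red points and 35 of the 38 blue points lie right of 0, and Mcm3, Mcm6, Prim1 and Pole lie among the farthest right.

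Fibroblast RNA moved with the day. The 10 fibroblast markers took 0.180 to 0.350% of reads in p95HER2 day 22 tumors, against 0.527 to 1.21% in p95HER2 day 10 tumors, and 9 of the 10 fell. In FL-HER2 tumors they took 0.134 to 0.389% at day 22, against 0.908 to 2.70% at day 10, and 10 of 10 fell. None of the 10 was at 0 in all libraries. Since the days do not overlap in fibroblast share, the share and the day cannot be told apart: with the fibroblast level as a covariate, an alternative chosen after the data were seen, 6 of the 38 replication genes were higher at day 22 in p95HER2 tumors and 0 in FL-HER2 tumors. The median log2 changes were then 0.14 and 0.10. Muscle markers took 0.0015 to 0.594% of reads in p95HER2 day 22 tumors, against 0.0039 to 1.05% in p95HER2 day 10 tumors. They took 0.0243 to 0.923% in FL-HER2 day 22 tumors, against 0.0484 to 3.82% in FL-HER2 day 10 tumors. Between the days, 0 of the 20 muscle markers passed in p95HER2 tumors and 8 fell in FL-HER2 tumors. Among libraries with a muscle share between 0.1 and 1.3%, 18 replication genes were higher at day 22 in p95HER2 tumors and 19 in FL-HER2 tumors. That subset kept 6 p95HER2 day 22, 4 p95HER2 day 10, 8 FL-HER2 day 22 and 3 FL-HER2 day 10 libraries. The part of the smaller groups in the lower counts was not tested. In FL-HER2 tumors a further term for the number of digits in the tumor number, which rests on the 2 day 10 libraries with 3 digits, left 11 genes higher. These counts under other settings are not set beside the share of all genes called in the same setting. A loss particular to the replication genes is therefore not shown. T cell markers, which come from a lineage that can itself divide in tumors, were also higher at day 22 in FL-HER2 tumors for 8 of 9 genes, at 22.3 to 90.1 CPM in sum in FL-HER2 day 22 tumors, against 9.70 to 31.0 CPM in FL-HER2 day 10 tumors, and 0 of 9 passed in p95HER2 tumors. Endothelial markers fell in FL-HER2 tumors for 10 of 10 genes. The part of T cell and endothelial RNA in the replication gene levels was not tested.

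Licensing genes held the changes with the smallest p-values. In p95HER2 tumors, 7 of the 10 were higher at day 22, and in FL-HER2 tumors 8 of the 10. The helicase subunit Mcm6 (chromosome 1, 128331590 to 128359664, minus strand, GRCm38) measured 274, 336 and 373 CPM (reads scaled to library depth; lowest, median and highest library) in p95HER2 day 22 tumors, against 192, 239 and 264 CPM in p95HER2 day 10 tumors. It measured 305, 354 and 390 CPM in FL-HER2 day 22 tumors, against 186, 241 and 270 CPM in FL-HER2 day 10 tumors. Every day 22 library thus lay above every day 10 library with the same construct, and the log2 change was 0.46 ± 0.058 (SE) in p95HER2 tumors and 0.48 ± 0.059 in FL-HER2 tumors (limma, adjusted p = 3.94e-08 and 1.57e-08).
Another subunit of the ring, Mcm3 (chromosome 1, 20802968 to 20820312, minus strand), measured 180, 221 and 246 CPM in p95HER2 day 22 tumors, against 140, 160 and 172 CPM in p95HER2 day 10 tumors. In FL-HER2 tumors it measured 208, 220 and 254 CPM at day 22, against 129, 165 and 190 CPM at day 10. Again the days did not overlap with either construct, with log2 changes of 0.41 and 0.39. The other ring subunits changed by less: Mcm2 by 0.32 in p95HER2 and 0.30 in FL-HER2 tumors, Mcm5 by 0.28 and 0.32, and Mcm4 by 0.20 and 0.28. Mcm7, the most abundant of the 38 per length, had the smallest log2 changes of the ring, 0.11 in p95HER2 tumors (adjusted p = 0.0795) and 0.13 in FL-HER2 tumors (adjusted p = 0.0346). The loaders differed more: Cdc6, which helps to place the ring, changed by 0.35 in p95HER2 and 0.41 in FL-HER2 tumors, and Orc1, the origin recognition subunit that is itself degraded and remade within the cycle, by 0.31 and 0.49. Cdt1, the partner of Cdc6, had log2 values of 0.17 and 0.15 that did not pass the test. Orc6 measured 25.9, 29.2 and 36.8 CPM in p95HER2 day 22 tumors, against 22.8, 28.3 and 31.6 CPM in p95HER2 day 10 tumors, and its log2 values were 0.02 in p95HER2 tumors and -0.14 in FL-HER2 tumors, neither past the threshold.

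Among the 6 genes of helicase activation, 5 were higher at day 22 in p95HER2 tumors and 4 in FL-HER2 tumors. The GINS subunit Gins1 measured 16.3, 18.5 and 23.7 CPM in p95HER2 day 22 tumors, against 11.3, 14.9 and 16.9 CPM in p95HER2 day 10 tumors. It measured 18.6, 24.6 and 25.5 CPM in FL-HER2 day 22 tumors, against 12.8, 16.4 and 19.9 CPM in FL-HER2 day 10 tumors. The days overlapped with either construct, and the log2 changes were 0.35 ± 0.073 and 0.42 ± 0.075 (limma, adjusted p = 0.000228 and 1.26e-05). The 4 GINS subunits did not move by the same amount: Gins2 changed by 0.35 in p95HER2 and 0.27 in FL-HER2 tumors, Gins3 changed by 0.40 in p95HER2 tumors with a log2 value of 0.22 in FL-HER2 tumors that missed the threshold (adjusted p = 0.058), and Gins4 had values of 0.05 and 0.07 that passed in neither. Cdc45, which completes the active helicase, changed by 0.23 in p95HER2 and 0.30 in FL-HER2 tumors. Mcm10, needed to start the fork, measured 37.2, 40.4 and 49.8 CPM in FL-HER2 day 22 tumors, against 23.6, 30.0 and 38.2 CPM in FL-HER2 day 10 tumors, with a log2 change of 0.38, and changed by 0.25 in p95HER2 tumors.

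The polymerase and primase genes were the role group in which 6 of 6 were higher at day 22 with either construct. Prim1, the catalytic subunit of primase, measured 42.2, 48.9 and 61.7 CPM in p95HER2 day 22 tumors, against 30.4, 34.2 and 40.5 CPM in p95HER2 day 10 tumors, a log2 change of 0.46 ± 0.061 (limma, adjusted p = 1.16e-07). In FL-HER2 tumors it measured 46.3, 52.1 and 59.0 CPM at day 22, against 27.2, 35.5 and 45.3 CPM at day 10, a log2 change of 0.43. On the CPM scale neither pair of days overlapped. Its partner Prim2 measured 37.7, 41.9 and 50.8 CPM in p95HER2 day 22 tumors, against 25.3, 31.8 and 36.5 CPM in p95HER2 day 10 tumors, with a log2 change of 0.37 in both constructs. Pole, the catalytic subunit of the leading-strand polymerase epsilon, measured 46.8, 56.8 and 67.9 CPM in FL-HER2 day 22 tumors, against 23.1, 37.5 and 47.2 CPM in FL-HER2 day 10 tumors. Its log2 change of 0.54 ± 0.089 in FL-HER2 tumors (limma, adjusted p = 4.47e-06) was the largest of the 38 there, and it was 0.41 in p95HER2 tumors. Pold1, of the lagging-strand polymerase delta, changed by 0.20 in p95HER2 and 0.31 in FL-HER2 tumors, and the polymerase alpha subunits Pola1 and Pola2 by 0.23 and 0.24 in p95HER2 tumors and 0.38 and 0.33 in FL-HER2 tumors.

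Clamp, clamp loader and lagging-strand genes divided in a less uniform way. Of the clamp and its loaders, the same 3 of 5 genes were higher at day 22 with either construct: Pcna, Rfc2 and Rfc4. Rfc4 (chromosome 16, 23113943 to 23127737, minus strand) measured 32.2, 40.1 and 45.6 CPM in p95HER2 day 22 tumors, against 27.7, 30.9 and 32.9 CPM in p95HER2 day 10 tumors, and 38.9, 43.4 and 48.7 CPM in FL-HER2 day 22 tumors, against 25.1, 30.1 and 37.6 CPM in FL-HER2 day 10 tumors. The days were apart in FL-HER2 tumors and touched in p95HER2 tumors, with log2 changes of 0.32 ± 0.051 in p95HER2 and 0.38 ± 0.052 in FL-HER2 tumors (limma, adjusted p = 3.98e-06 and 1.3e-07). Rfc2 changed by 0.23 in p95HER2 and 0.21 in FL-HER2 tumors, and Pcna by 0.25 and 0.23. The other loader subunits stood apart from these, with log2 values of 0.0073 for Rfc3 and 0.13 for Rfc5 in p95HER2 tumors, and 0.05 and -0.0097 in FL-HER2 tumors, none past the threshold. Fen1, the flap nuclease, measured 79.5, 96.1 and 121 CPM in p95HER2 day 22 tumors, against 66.3, 76.4 and 86.1 CPM in p95HER2 day 10 tumors, and its log2 change was 0.26 in p95HER2 and 0.23 in FL-HER2 tumors. Lig1, the ligase of lagging-strand fragments, changed by 0.21 in p95HER2 and 0.30 in FL-HER2 tumors. The single-strand binding subunit Rpa2 changed by 0.22 in p95HER2 tumors (adjusted p = 0.0251), with a value of 0.04 in FL-HER2 tumors that did not pass.

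Nucleotide supply differed from gene to gene. Tk1, the thymidine kinase of the salvage route, measured 247, 315 and 367 CPM in p95HER2 day 22 tumors, against 142, 243 and 255 CPM in p95HER2 day 10 tumors. In FL-HER2 tumors it measured 237, 325 and 372 CPM at day 22, against 141, 202 and 263 CPM at day 10. The days overlapped with either construct, and the log2 changes were 0.37 ± 0.094 and 0.51 ± 0.096 (limma, adjusted p = 0.00177 in p95HER2 and 2.69e-05 in FL-HER2). Tyms, which makes thymidylate by the other route, measured 149, 175 and 214 CPM in p95HER2 day 22 tumors, against 143, 166 and 180 CPM in p95HER2 day 10 tumors. Its log2 values of 0.05 in p95HER2 and 0.06 in FL-HER2 tumors passed in neither. The ribonucleotide reductase subunits Rrm1 and Rrm2 had values of 0.11 and 0.10 in p95HER2 tumors that did not pass, and changed by 0.22 and 0.28 in FL-HER2 tumors.

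Of the regulators, E2f1 and Uhrf1 were higher at day 22 with either construct, and the cyclin E genes were not called. Uhrf1, which brings maintenance DNA methylation to the fork, measured 157, 197 and 229 CPM in p95HER2 day 22 tumors, against 108, 143 and 164 CPM in p95HER2 day 10 tumors, and 183, 200 and 216 CPM in FL-HER2 day 22 tumors, against 101, 144 and 175 CPM in FL-HER2 day 10 tumors. The days were apart in FL-HER2 tumors, and the log2 changes were 0.41 ± 0.065 in p95HER2 and 0.43 ± 0.067 in FL-HER2 tumors (limma, adjusted p = 3.37e-06 and 1.68e-06). The transcription factor E2f1 measured 53.4, 58.7 and 67.0 CPM in FL-HER2 day 22 tumors, against 33.2, 41.9 and 49.4 CPM in FL-HER2 day 10 tumors, a log2 change of 0.41, and changed by 0.29 in p95HER2 tumors. Ccne1 and Ccne2, the cyclins that trigger entry to S phase, had log2 values of 0.07 and 0.10 in p95HER2 tumors and 0.19 and -0.0032 in FL-HER2 tumors.

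**Figure D2:**
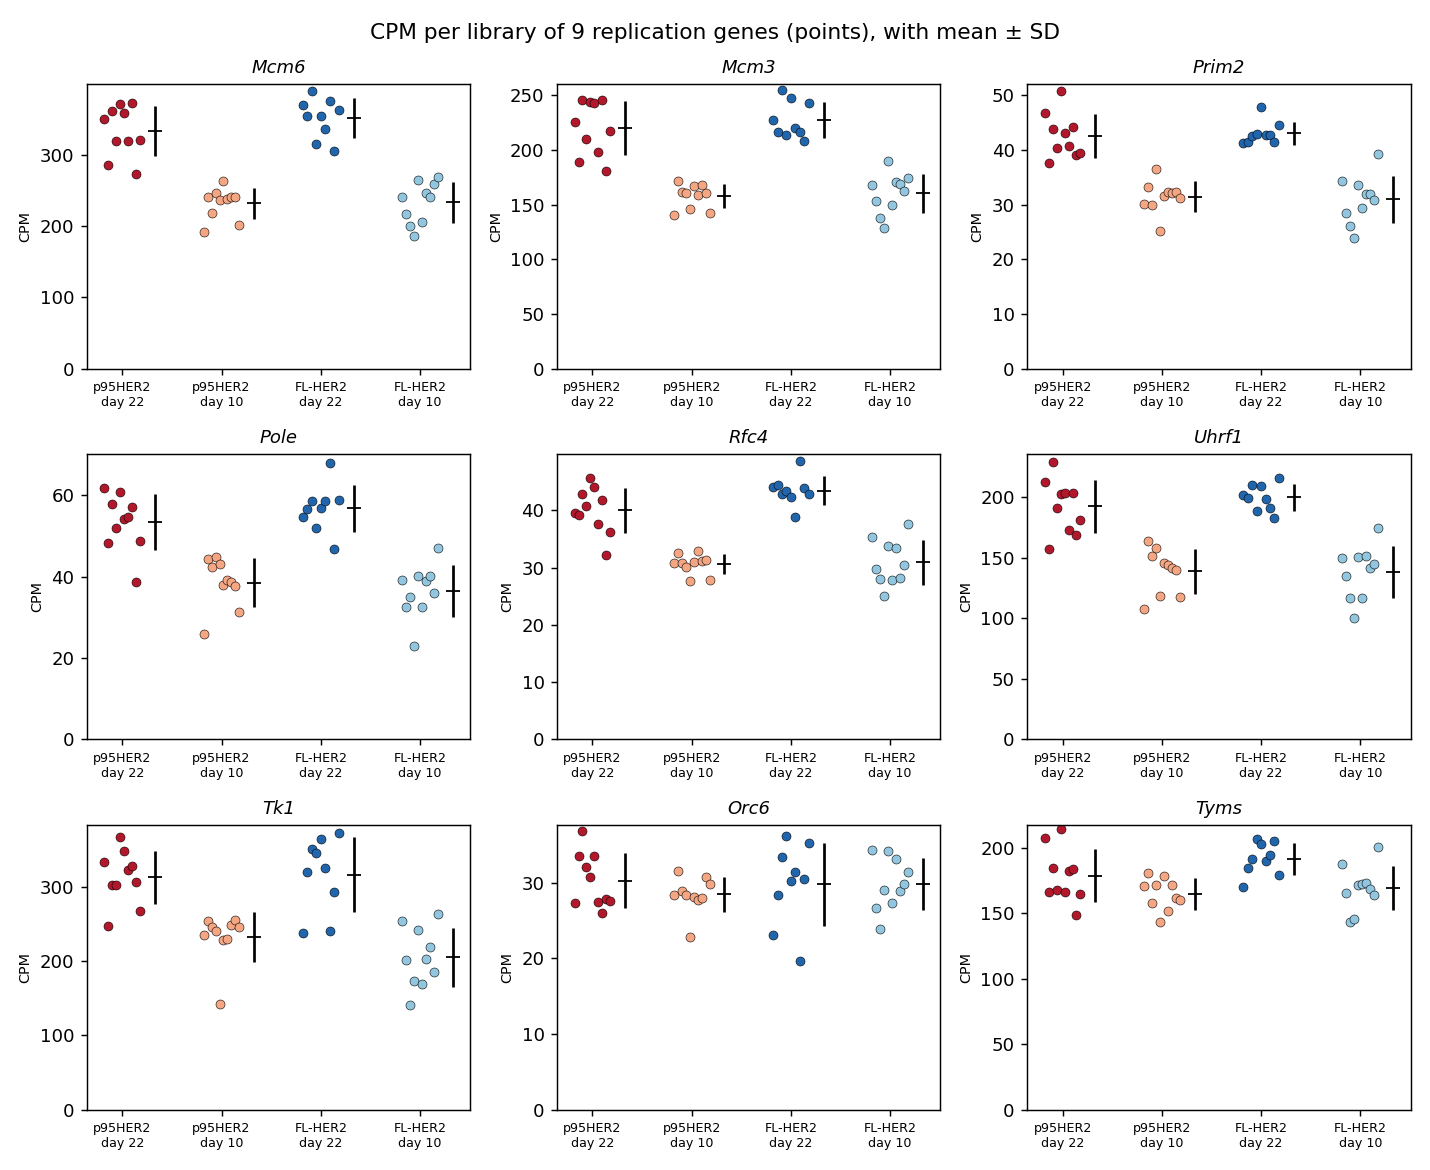
CPM (y axis, linear, starting at 0) of 9 replication genes in every library of the 4 groups (x axis), with the mean and SD beside the points; Pole, Orc6 and Tyms were picked for the plot after their values were seen. Mcm6, Mcm3 and Prim2 show the day 22 points above the day 10 points for each construct, while Orc6 and Tyms show groups that overlap.

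Together, 25 genes were higher at day 22 with both constructs. The share of all genes called higher with both was not computed, so this joint count has no background beside it. Mcm7, Rrm1 and Rrm2 were called in FL-HER2 tumors alone and Gins3 and Rpa2 in p95HER2 tumors alone, and for none of these 5 did the change between days differ between the constructs in a test of that difference. The 8 genes called with neither construct were Orc6, Cdt1, Gins4, Rfc3, Rfc5, Tyms, Ccne1 and Ccne2. The direction of the change did not depend on the scaling for the called genes, but the position of all genes did: in FL-HER2 tumors the share of all called genes that were higher was 40.4% on the deposited scale, 62.5% after quantile normalization and 62.4% on log2(CPM + 1), and the median of all genes stood at -0.03, 0.08 and 0.08. In p95HER2 tumors that share was 47.1% on the deposited scale and 64.3% on log2(CPM + 1). On log2(CPM + 1) the median of the replication genes was 0.30 in p95HER2 and 0.41 in FL-HER2 tumors, with 29 and 33 genes higher. The share of all genes called higher on that scale is not set beside these counts. A stronger rise of the replication genes on that scale is therefore not shown.

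**Figure D3:**
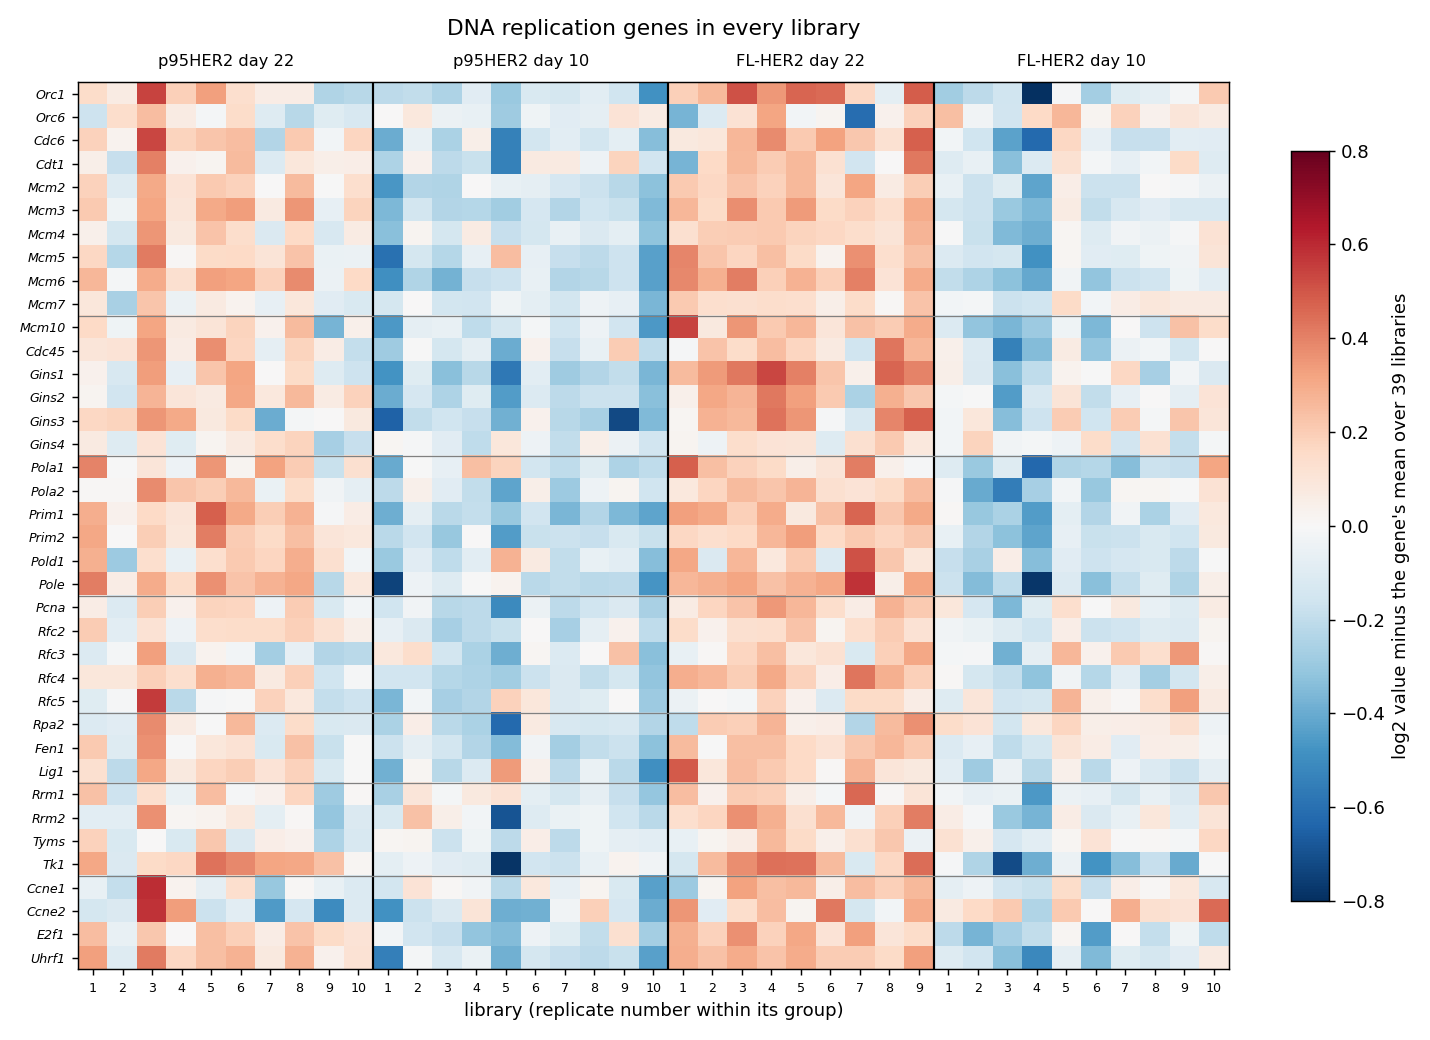
Log2 value of each replication gene (rows, by role) minus its mean over the 39 libraries (colour), in every library (columns, replicate number on the x axis) of p95HER2 day 22, p95HER2 day 10, FL-HER2 day 22 and FL-HER2 day 10 tumors. Red, above the mean, fills most of the day 22 columns and blue most of the day 10 columns, with p95HER2 day 22 replicates 2, 9 and 10 and FL-HER2 day 10 replicates 5 and 10 as columns of mixed colour.

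Libraries of 1 group differed in how many replication genes they held above the mean. The number of the 38 genes above the all-library mean had a median of 29 in p95HER2 day 22 tumors (range 10 to 38), 5.5 in p95HER2 day 10 tumors (range 1 to 12), 36 in FL-HER2 day 22 tumors (range 28 to 38) and 10.5 in FL-HER2 day 10 tumors (range 2 to 24). FL-HER2 day 22 tumors were the most alike, with a mean offset of 0.18 ± 0.054 (SD, n = 9) on the log2 scale, and p95HER2 day 22 tumors spread most, with 0.08 ± 0.125 (SD, n = 10). All 38 genes lay above their means in p95HER2 day 22 replicate 3. In p95HER2 day 22 replicates 2 and 9 only 10 did. The FL-HER2 day 10 replicates 3 and 4, with 2 genes above, carried muscle shares of 2.56 and 3.82%. The FL-HER2 day 10 replicate 10, with 24 genes above, had the lowest muscle share of its group at 0.0484%, and replicate 5 also had 24, at 1.72%. Among p95HER2 day 10 tumors, replicates 2 and 7 had 12 and 1 genes above at muscle shares of 0.0039 and 0.0141%. Replicates 6 and 10 of that group had 12 and 1 genes above at 0.587 and 0.816%, and replicates 1 and 5 had 4 and 8 at 1.05 and 0.582%. By mean offset, replicates 10, 1 and 5 were the lowest of that group, at -0.30, -0.29 and -0.25, and replicate 6 stood at -0.06. Its libraries with muscle shares up to 0.0335% had offsets between -0.17 and -0.05. The part of muscle RNA in these levels was not tested library by library.

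Between the constructs, the replication genes differed little. At day 10, 7 of the 38 were lower in p95HER2 tumors than in FL-HER2 tumors and 0 were higher, or 18.4% lower against 26.1% of all genes, and 15.2% of all genes were higher. The median log2 difference was -0.05, beside -0.04 over all genes. The 7 genes were Mcm7, Gins1, Gins3, Pcna, Rpa2, Fen1 and Ccne2. Gins3 measured 6.07, 8.77 and 10.4 CPM in p95HER2 day 10 tumors, against 7.37, 10.1 and 11.8 CPM in FL-HER2 day 10 tumors, a log2 difference of -0.32 ± 0.095 (limma, adjusted p = 0.00641). Ccne2 measured 13.8, 17.9 and 22.9 CPM in p95HER2 day 10 tumors, against 15.0, 20.8 and 28.1 CPM in FL-HER2 day 10 tumors, also a difference of -0.32. Rpa2 measured 25.8, 37.0 and 44.2 CPM in p95HER2 day 10 tumors, against 34.2, 41.9 and 45.8 CPM in FL-HER2 day 10 tumors, a difference of -0.25. The constructs overlapped for each of these genes. Pcna differed by -0.15, Fen1 by -0.16, Gins1 by -0.20 and Mcm7 by -0.12. The polymerase and nucleotide supply groups had no gene past the threshold, with log2 values of 0.04 for Pold1 and 0.13 for Tk1.

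These day 10 calls rested on the scaling and on single libraries. On log2(CPM + 1) and with voom on the recovered reads 1 of the 38 genes was lower, with median-of-ratios factors 3, and after quantile normalization 2 lower and 1 higher. Over all genes the share of calls that were higher was 36.7% on the deposited scale, 51.5% on log2(CPM + 1) and 63.4% after quantile normalization, and the median of all genes stood at -0.04, 0.02 and 0.07. Without FL-HER2 day 10 replicate 7, 4 genes were lower. All 20 muscle markers were lower in p95HER2 day 10 tumors, at 38.96 to 10473 CPM in sum, against 483.6 to 38181 CPM in FL-HER2 day 10 tumors, and 6 of the 10 fibroblast markers were lower as well. Macrophage markers were lower for 9 of 10 genes, at 569 to 1163 CPM in sum in p95HER2 day 10 tumors, against 861 to 1271 CPM in FL-HER2 day 10 tumors. Endothelial markers were lower for 8 of 10, at 350.0 to 495 CPM in p95HER2 day 10 tumors, against 438 to 551 CPM in FL-HER2 day 10 tumors. The part of macrophage and endothelial RNA was not tested. With the muscle level as a covariate 11 replication genes were lower. Among the 4 p95HER2 and 3 FL-HER2 day 10 libraries with a muscle share between 0.1 and 1.3%, 1 was. With the digit term 1 was lower. The counts under other settings are not set beside the share of all genes called in each setting.

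At day 22, 1 of the 38 genes was lower in p95HER2 tumors and 0 were higher, or 2.63% lower against 1.54% of all genes, and 2.98% of all genes were higher. That gene was Gins1, which measured 16.3, 18.5 and 23.7 CPM in p95HER2 day 22 tumors, against 18.6, 24.6 and 25.5 CPM in FL-HER2 day 22 tumors. The groups overlapped, and the log2 difference was -0.28 ± 0.075 (limma, adjusted p = 0.0234). The differences of the other 37 genes were small and mostly of the same sign. Below 0 were 37 of the 38 values, against 7155 of 13650 over all genes, with a median of -0.09 beside -0.01 over all genes. The genes share libraries, so these are not separate results, and their signs under other scalings are not given here. The 95% intervals of single genes reached no lower than -0.43 and no higher than 0.19. The gene with the highest mean CPM in each other role group gave log2 values of -0.14 for Mcm7, -0.06 for Pold1, -0.14 for Pcna, -0.10 for Lig1, -0.01 for Tk1 and -0.07 for Uhrf1. T cell markers were lower in p95HER2 tumors as well, for 6 of 9 genes with 9 of 9 values below 0 (median -1.59), at 8.48 to 54.1 CPM in sum in p95HER2 day 22 tumors, against 22.3 to 90.1 CPM in FL-HER2 day 22 tumors, and their part in the replication gene values was not tested. The Gins1 call was lost without p95HER2 day 22 replicate 9 or 10 and without FL-HER2 day 22 replicate 3, 4 or 8. The count was 2 without p95HER2 day 10 replicate 5 and 3 without p95HER2 day 22 replicate 3.

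**Figure D4:**
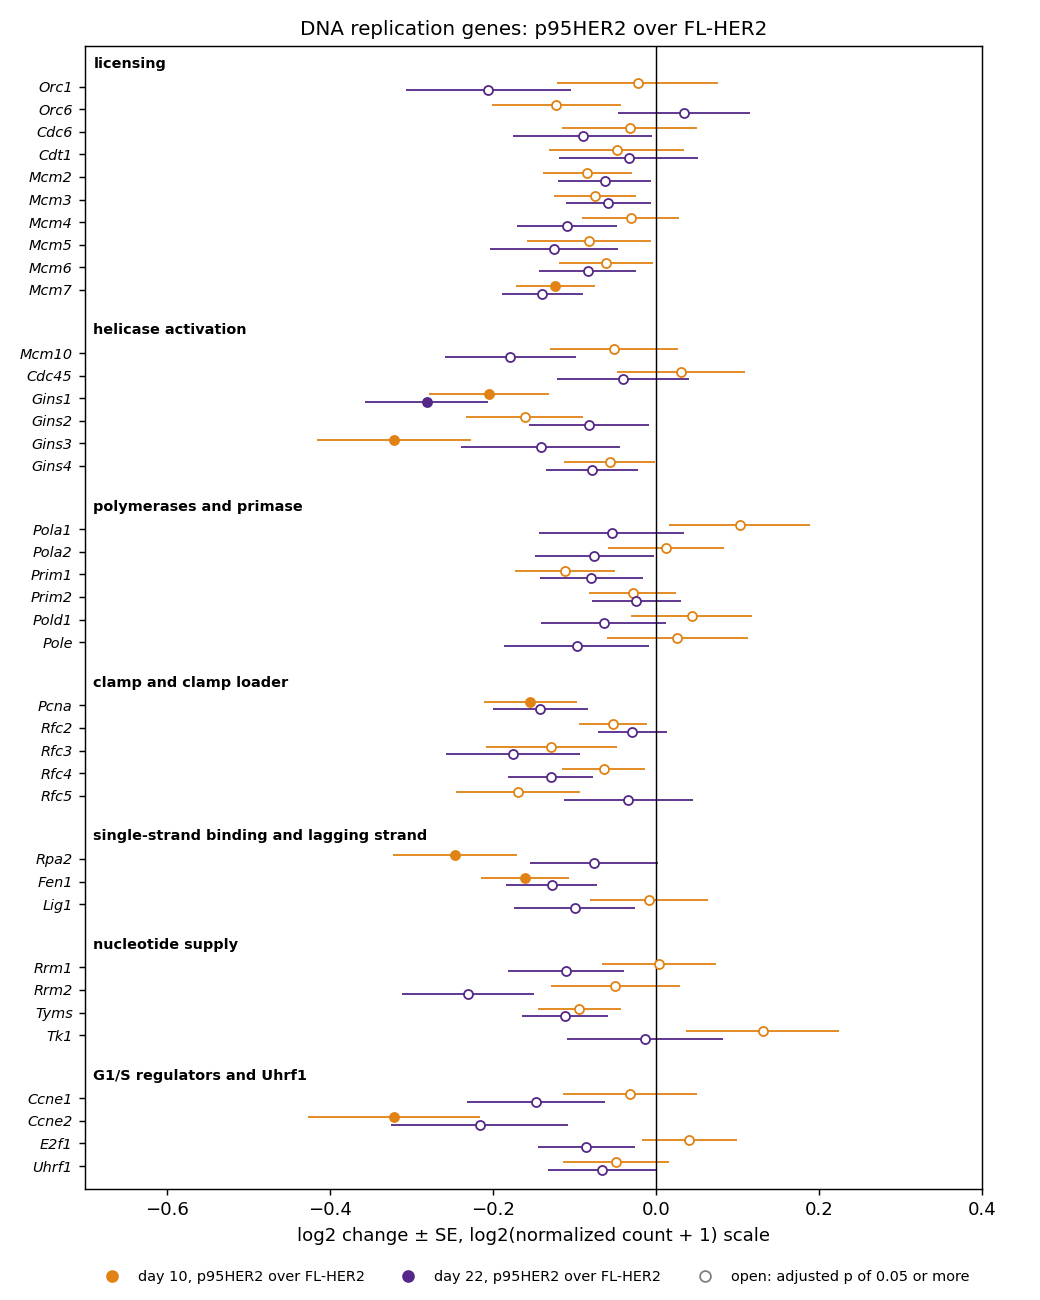
Log2 difference between p95HER2 and FL-HER2 tumors (x axis, log2(normalized count + 1) scale, bars are the SE) of the 38 replication genes (rows, by role) at day 10 (orange) and day 22 (purple); filled points had an adjusted p under 0.05. The 7 filled orange points and the 1 filled purple point, Gins1, lie left of 0, and 37 of the 38 purple points do.

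The change of the construct difference between the days was called for 0 of the 38 genes by limma, against 19.6% of all genes, with 0 at an unadjusted p under 0.05, 0 with voom and 1 lower after quantile normalization. Values ranged between -0.18 for Orc1 and 0.18 for Gins3, and the smallest adjusted p was 0.262, for Rrm2. The 95% intervals reached -0.46 on one side and 0.45 on the other, and the median SE was 0.105. The comparisons between days in the 2 constructs share no libraries with each other, and both enter this contrast.

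Other genes of the replication pathway were set beside the 38. Of 44 further replication genes, 25 were higher at day 22 and 1 lower in p95HER2 tumors (median log2 change 0.20), or 56.8% higher against 16.6% of all genes, and 24 were higher and 2 lower in FL-HER2 tumors (median 0.23), or 54.5% against 20.7%. Recql4, a helicase of origin firing, rose by 0.59 in p95HER2 and 0.75 in FL-HER2 tumors, and Dtl, which directs destruction of Cdt1 in S phase, by 0.50 and 0.65. Rpa1, the large single-strand binding subunit, rose by 0.39 in p95HER2 and 0.26 in FL-HER2 tumors. Orc2 rose by 0.17 in p95HER2 and 0.42 in FL-HER2 tumors, and the checkpoint mediator Clspn by 0.31 and 0.53. The genes that fell were Dbf4, the activator of the Cdc7 kinase, with a log2 change of -0.18 in p95HER2 tumors, and Orc5 and the small polymerase delta subunit Pold4, with -0.18 and -0.47 in FL-HER2 tumors. These 3 were named after their values were seen.

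Mitosis genes were called at the share of all genes in p95HER2 tumors and above it in FL-HER2 tumors. Of 26, 4 were higher at day 22 and 0 lower in p95HER2 tumors (median 0.08), or 15.4% higher against 16.6% of all genes, and 21 were higher and 0 lower in FL-HER2 tumors (median 0.23), or 80.8% against 20.7%. In a test of the difference between the constructs, 0 of the 26 were called by limma, so the counts are not shown to differ gene by gene. Of the 26 values in that test, 23 were below 0, against 5950 of 13650 over all genes. Their median was -0.18, beside 0.04 over all genes, and the list as a set was not tested. Birc5, which encodes survivin of the chromosomal passenger complex, rose by 0.22 in p95HER2 and 0.43 in FL-HER2 tumors, Mybl2, a factor that drives G2/M genes, by 0.21 and 0.44, and the kinetochore gene Nuf2 by 0.19 and 0.38. Cenpf rose by 0.53 in FL-HER2 tumors, with a value of 0.20 in p95HER2 tumors that did not pass. Mki67, the source of the Ki-67 antigen, measured 404, 476 and 593 CPM in p95HER2 day 22 tumors, against 311, 381 and 561 CPM in p95HER2 day 10 tumors, with a log2 value of 0.19 (limma, adjusted p = 0.116). It measured 445, 520 and 683 CPM in FL-HER2 day 22 tumors, against 255, 358 and 520 CPM in FL-HER2 day 10 tumors, with a log2 change of 0.43 (adjusted p = 0.000426). Top2a, the topoisomerase of G2 and mitosis, had values of 0.03 in p95HER2 tumors, not past the threshold, and 0.26 in FL-HER2 tumors.

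**Figure D5:**
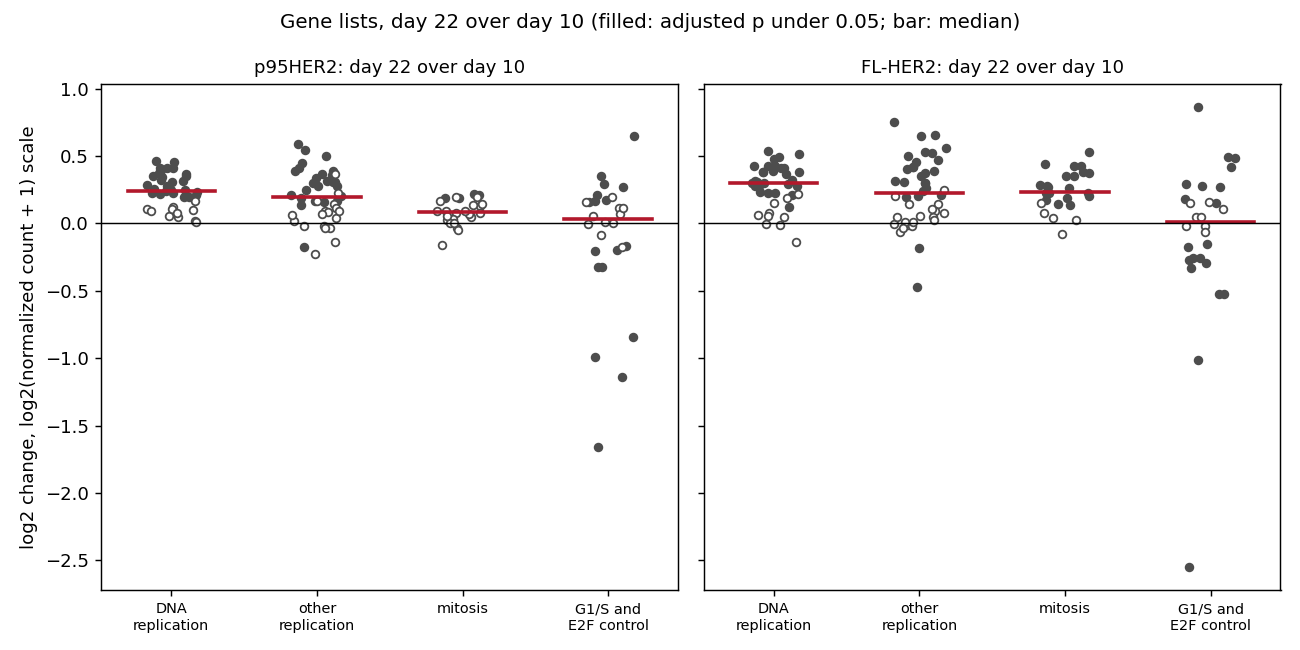
Log2 change between day 22 and day 10 (y axis, log2(normalized count + 1) scale) of each gene in 4 lists (x axis) in p95HER2 tumors (left) and FL-HER2 tumors (right); filled points had an adjusted p under 0.05 and bars are medians. The medians of the replication lists lie above 0 in both panels, the mitosis median is 0.08 at left and 0.23 at right, and the G1/S and E2F control genes spread to both sides of 0.

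The genes that control entry to S phase went both ways. Of 28 G1/S and E2F control genes, 8 were higher and 9 lower at day 22 in p95HER2 tumors, and 9 higher and 11 lower in FL-HER2 tumors. As shares these were 28.6% higher and 32.1% lower in p95HER2 tumors, against 16.6 and 18.6% of all genes, and 32.1% higher and 39.3% lower in FL-HER2 tumors, against 20.7 and 30.6%. Cyclin D1 (Ccnd1), which with Cdk4 or Cdk6 starts the inactivation of Rb, measured 1441, 1955 and 2088 CPM in p95HER2 day 22 tumors, against 959, 1169 and 1317 CPM in p95HER2 day 10 tumors. In FL-HER2 tumors it measured 1812, 2124 and 2396 CPM at day 22, against 788, 1030 and 1394 CPM at day 10. The days were apart with either construct, and the log2 changes of 0.65 ± 0.075 and 0.87 ± 0.077 exceeded those of all 38 replication genes (limma, adjusted p = 5.96e-09 in p95HER2 and 7.83e-12 in FL-HER2). Its kinase partner Cdk6 measured 47.9, 59.2 and 76.9 CPM in p95HER2 day 22 tumors, against 111, 122 and 166 CPM in p95HER2 day 10 tumors, with log2 changes of -1.14 there and -0.52 in FL-HER2 tumors. The inhibitor genes moved in different directions. Cdkn1a, which encodes p21, rose by 0.21 in p95HER2 and 0.50 in FL-HER2 tumors. Of the 7 inhibitor genes on the list, 2 rose and 3 fell in p95HER2 tumors, and 3 rose and 4 fell in FL-HER2 tumors. Cdkn2c, which encodes p18, also rose, by 0.27 in p95HER2 and 0.28 in FL-HER2 tumors, and Cdkn2a rose by 0.49 in FL-HER2 tumors, with a value of 0.20 in p95HER2 tumors that did not pass; both were named after their values were seen. Among those that fell, the log2 changes in p95HER2 and FL-HER2 tumors were -1.66 and -2.55 for Cdkn1c, which encodes the p57 inhibitor, -0.32 and -0.18 for Cdkn1b, which encodes p27, and -0.84 and -0.52 for Cdkn2b, which encodes p15. At day 10 Cdk6 was higher in p95HER2 tumors by 0.51 and Cdkn2b by 0.77, and Cdkn1c was lower, with a log2 difference of -1.57. Fibroblast markers fell over the same days, as given above, and their part in these changes was not tested for this list.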

How the data were processed

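Directional poly(A) libraries were made from 39 tumors, per the labels' protocols. The submitters' processing notes name STAR 2.4.2a, the mm10 build and DESeq2, and no source used here names the read counter. The authors' deposited values are log2 of a normalized count plus 1: every value, raised back, was a whole multiple of 1 step per library (100% within 0.001 reads), which recovered the reads and CPM. The 13650 genes that reached 1 CPM in 9 or more libraries were tested, since the values are log2, with limma 3.58.1 (R 4.3.3), 1 fit over the 4 groups, 5 contrasts, Benjamini-Hochberg adjustment per contrast and a threshold of 0.05. Log2 changes understate low genes. Levels are CPM, or RPKM over the exon union of GENCODE M21. The fit was tested on simulated data. In these data 67 of 13650 genes were changed 1.2-fold, 67 others 1.5-fold and 66 others 2-fold. Of those changed 1.2-fold, the fit recovered 23.9 to 31.3% in the comparisons of groups. For the change of the construct difference between days it recovered 10.4%. The simulated fits called 144 to 156 genes in all in the comparisons of groups and 124 for the change. Every comparison of the deposited data called more genes, which shifts the adjusted threshold, so these shares do not give the power there. An uncalled gene is not shown to be unchanged at this size. The 38 genes and the other lists were chosen with earlier results of these data known. In each role group and comparison, the called genes with the smallest adjusted p-values were named, or else that with the highest mean CPM. Other scalings, filters, covariates and left-out libraries were tried. Per-library depth was 21772259 to 44427621 reads.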

Additional observations from a re-analysis of the deposited data

Results flagged for a closer look

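In groups of 9 or 10 libraries, 17 of 152 gene-by-group sets held a library that stood far from the rest. By chance the rule flags about 1 in 20 independent sets. These sets are not independent, since the genes share libraries and several flags fall on the same library, so an excess over chance is not shown. The rule was not run over all genes. Each value below is that library's gap to its nearest neighbour as a share of the group's range on the log2 scale. FL-HER2 day 10 replicate 4, the library with the highest muscle share (3.82% of reads), was lowest for Orc1 (0.564), Mcm2 (0.533), Mcm5 (0.557), Pole (0.524) and Rrm1 (0.467). Orc1 measured 4.45 CPM there, against 7.17 to 11.2 CPM in the other libraries of the group. p95HER2 day 10 replicate 5 was lowest for Tk1 (0.755), at 142 CPM against 228 to 255 CPM, and for Rpa2 (0.530), Pcna (0.519), Rrm2 (0.517) and Orc6 (0.502). p95HER2 day 22 replicate 3 was highest for Ccne1 (0.516), Rfc3 (0.502) and Rfc5 (0.483), with Rfc5 at 103 CPM against 58.6 to 75.6 CPM. Single lowest values were Mcm7 in p95HER2 day 10 replicate 10 (0.578), Mcm10 in p95HER2 day 22 replicate 9 (0.495), Gins3 in p95HER2 day 22 replicate 7 (0.505) and Ccne1 in FL-HER2 day 22 replicate 1 (0.509).

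Outside the 38 genes, 4 cell cycle genes had a construct difference that changed between the days (limma, adjusted over all genes). Of 44 other replication genes 0 were called higher and 1 lower, and of 28 G1/S and E2F control genes 1 higher and 2 lower. None of 26 mitosis genes was called. Over all genes, 19.6% were called in this contrast, so the 4 are not more than a share of this size would give. The change was -0.25 for Orc2 (adjusted p = 0.0189), -0.62 for Cdk6 (adjusted p = 0.000341), -0.28 for Cdkn1a (adjusted p = 0.0456) and 0.45 for Cdkn2d (adjusted p = 0.0286), on the log2 scale. A positive value means that p95HER2 minus FL-HER2 was higher at day 22 than at day 10.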

How the results depend on the processing

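The count of 28 replication genes higher at day 22 in FL-HER2 tumors was 11 with the digit term and 0 with the fibroblast covariate, and 27 to 30 when single libraries were left out. The count of 27 in p95HER2 tumors was 6 with the fibroblast covariate and 24 to 28 with single libraries left out. Over the 53 settings, 6 of these 27 stayed called (Mcm3, Mcm6, Prim1, Prim2, Rfc2 and Uhrf1), and 0 of the 28 in FL-HER2 tumors. The 7 genes lower in p95HER2 tumors at day 10 were 11 with the muscle covariate, 4 without libraries high in skin RNA, 3 with median-of-ratios factors, 2 after quantile normalization (with 1 higher), and 1 each on log2(CPM + 1), with voom, in muscle-limited libraries and with the digit term, and 4 to 9 with single libraries left out. The 1 lower gene at day 22 became 3 with the muscle covariate, 3 in muscle-limited libraries, 2 without skin-high libraries, 2 with the fibroblast covariate, and 0 to 3 with single libraries left out. For the change between days, 1 gene was lower after quantile normalization, and 0 when single libraries were left out. With the fibroblast covariate the estimate of the day change fell below 0 in FL-HER2 tumors for Mcm5 (-0.051), Mcm7 (-0.12), Mcm10 (-0.071), Gins2 (-0.025) and Lig1 (-0.10). In p95HER2 tumors it did so for Mcm10 (-0.0029) and Lig1 (-0.015). Over the 53 settings, the highest adjusted p (limma) of each of these genes lay between 0.635 and 0.965 in FL-HER2 tumors. In p95HER2 tumors it was 0.990 for Mcm10 and 0.946 for Lig1. The fibroblast share and the day cannot be told apart, so a reversal is not shown. The cause of the shifts between settings was not tested, and the counts above are not set beside the share of all genes called in each setting. No paired analysis was possible because the labels number no replicates across groups. The fewest reads for any of the 38 genes in a library were 155.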
